A study of Mus musculus with 8 samples.

Results

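The transcription factors that build the embryonic heart and stay expressed in the adult organ were followed as a group of 10 genes, Gata4, Gata6, Nkx2-5, Tbx5, Tbx20, Hand1, Hand2, Mef2c, Irx4 and Nr2f2. They were measured in the myocardium, the muscle of the heart wall, of untreated male mice. Probes were assigned to these genes through the RefSeq transcript named for each probe. This gave 12 of the 39429 probes on the array and 10 of its 20665 gene symbols, with 1 probe for 9 genes and 3 probes for Tbx20. The arrays came from mice labelled NPRA-/- (3 arrays) and from mice labelled NPRA+/+ (5 arrays). NPRA is the natriuretic peptide receptor encoded by Npr1, and the labels describe a floxed conditional allele whose loss is confined to the heart by the series title. The Cre driver, the ages and whether the NPRA+/+ mice carried floxed alleles or Cre are missing from the labels used here. RNA of each sample, carrying a single dye, was hybridised to 1 array, so each value is a transcript level in bulk tissue.

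Per array, between 79.5% and 92.6% of probes were well above background. The arrays were scanned on 4 days. Slides were inferred from the scan times, arrays with the same scan time being taken as 1 slide. By this reading no slide (0 of 6) held both genotypes. Only scan day 1 held both, with replicates 2 and 3 of each. On that day both NPRA-/- arrays were on slide 2 and both NPRA+/+ arrays on slide 1. Genotype therefore cannot be told apart from slide within scan day 1, and p-values there reflect spread within slides only. Day 2 held NPRA+/+ replicates 4 and 5, day 3 NPRA-/- replicate 1 and day 4 NPRA+/+ replicate 1. Npr1 itself averaged -5.85 ± 0.50 (SD, n = 3) on NPRA-/- arrays and -5.88 ± 0.66 (SD, n = 5) on NPRA+/+ arrays, close to background, on the log2 scale relative to each array's 75th percentile of signal that is used throughout. That probe therefore does not check the genotype labels. Cardiomyocyte markers were measured for 10 of 10 genes. They were above the 75th percentile on every array except Cacna1c, a calcium channel gene, which lay at -4.47 to -3.50 and is named after its values were seen.

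GATA4 and GATA6 are zinc finger factors, NKX2-5 and IRX4 homeodomain factors, TBX5 and TBX20 T-box factors, HAND1 and HAND2 basic helix-loop-helix factors, MEF2C a MADS-box factor and NR2F2 an orphan nuclear receptor. They bind enhancers of contractile and natriuretic peptide genes in combination, and GATA4, NKX2-5 and TBX5 contact one another directly. GATA4 and the MEF2 factors also take part in the growth response of adult cardiomyocytes. IRX4 marks the ventricles and NR2F2 the atria and the veins, which makes these genes markers of the chamber as well as regulators.

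The stretch upstream of a gene's start can itself carry letters that such factors recognise. The 250 bases before the start are printed 5′ to 3′ from the RefSeq promoter table (GRCm38.p6), for Nkx2-5 (chr17:26841566-26841815, minus strand), the factor whose arrays separated lower by genotype, and for the chamber factors Irx4 (chr13:73260247-73260496, plus strand) and Nr2f2 (chr7:70366747-70366996, minus strand), whose levels stood apart on replicate 1 of both genotypes. Capitals mark matches on either strand to GATAA (GATA factors), AAGTG (NKX factors), AGGTG (T-box factors) and CANNTG (the E-box of HAND factors and many others), where an E-box can overlap the NKX letters.
Nkx2-5: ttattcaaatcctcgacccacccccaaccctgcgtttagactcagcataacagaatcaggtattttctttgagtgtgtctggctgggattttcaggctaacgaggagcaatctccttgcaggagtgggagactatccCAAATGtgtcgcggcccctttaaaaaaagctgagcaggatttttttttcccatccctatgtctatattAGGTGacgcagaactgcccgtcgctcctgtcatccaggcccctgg
Irx4: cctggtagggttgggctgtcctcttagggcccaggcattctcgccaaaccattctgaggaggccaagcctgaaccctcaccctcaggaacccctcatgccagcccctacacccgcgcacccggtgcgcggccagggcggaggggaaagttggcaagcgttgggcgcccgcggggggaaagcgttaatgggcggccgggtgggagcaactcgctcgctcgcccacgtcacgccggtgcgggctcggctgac
Nr2f2: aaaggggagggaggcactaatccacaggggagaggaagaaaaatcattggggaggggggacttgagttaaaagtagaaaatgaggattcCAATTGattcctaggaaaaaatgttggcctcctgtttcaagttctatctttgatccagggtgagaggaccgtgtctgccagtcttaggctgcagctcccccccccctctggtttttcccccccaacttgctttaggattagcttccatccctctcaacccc
Nkx2-5 held 1 T-box match, 45 to 41 bases before the start, and 1 E-box match. Nr2f2 held 1 E-box match and Irx4 none (0). Among 32851 promoters of 250 bases, 22.6% held the GATA letters, 40.7% the NKX letters, 46.0% the T-box letters and 66.2% an E-box, so the matches are common ones. They describe the letters only.

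All 12 probes were well above background on all 8 arrays, in both genotypes. None (0 of 12) passed the test between genotypes (limma, adjusted p under 0.05 over all 35329 probes tested), where 0.348% of all tested probes did, 0.32% higher and 0.0283% lower on NPRA-/- arrays. One probe, that of Hand1, had an unadjusted p under 0.05 and was higher (1 of 12, or 8.33%), against 19.7% of all probes, 18.3% higher and 1.36% lower. The genotypes did not overlap for Hand1, higher on NPRA-/- arrays, and Nkx2-5, lower, which is 16.7% of the 12 probes and near the 15.4% of all probes. The median fitted change of all tested probes was 0.21 (log2, NPRA-/- over NPRA+/+), and changes below are given relative to it, with the SE of the fit. The limma p-values test the fitted change against 0. Relative changes of the 12 probes lay between -0.41 and 0.68 with a median of -0.09, 8 of them negative and 4 positive, and 11 of 12 were smaller than 0.5 in size. The shift of all probes was larger for dim probes, 0.63 among the dimmest when probes were ranked by signal and divided into 5 equal bins, and 0.05 in each of the 2 brightest bins. Measured against its own bin, a bright probe such as that of Gata4 or Nkx2-5 therefore has a change that is higher than the relative change given here, and a dim one such as that of Hand1 a lower one.

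**Figure D1:**
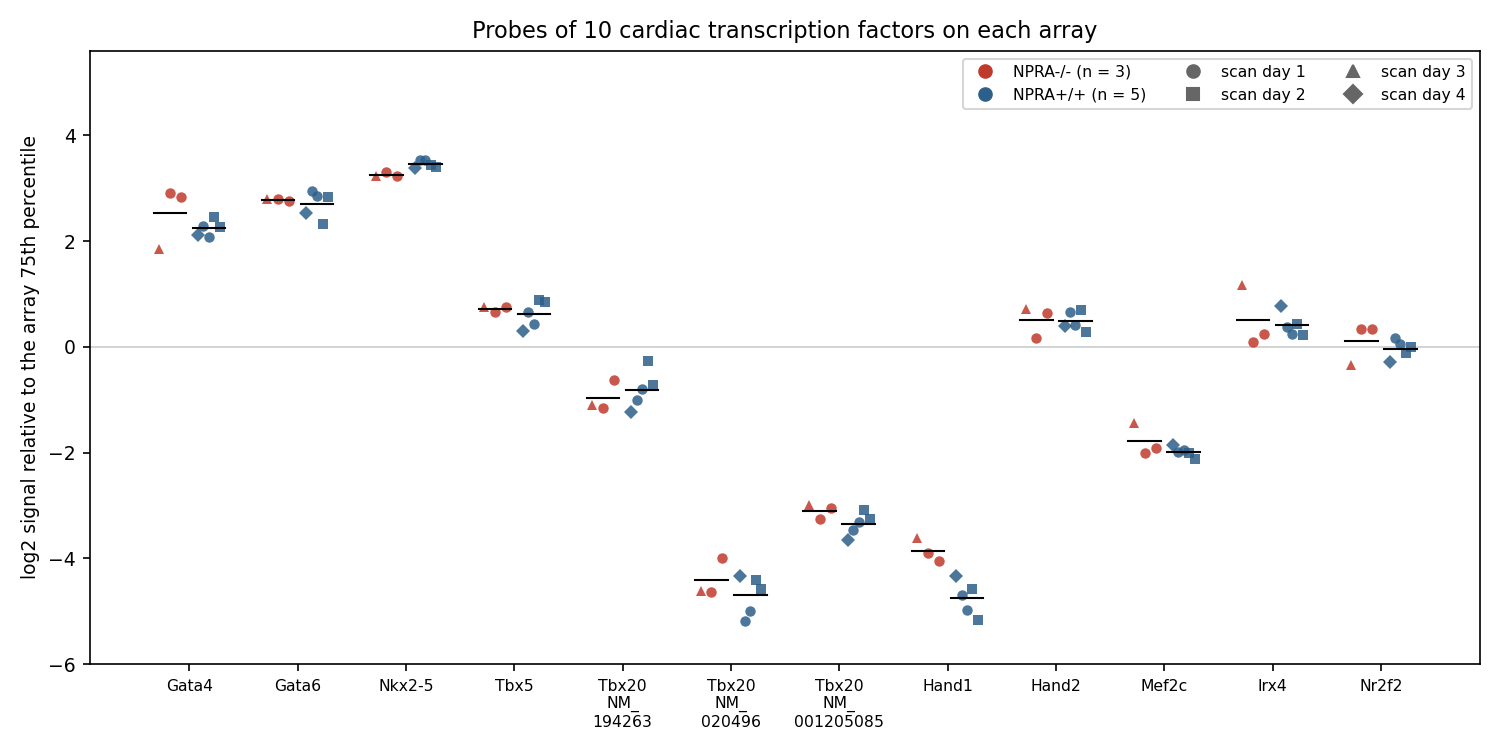
Log2 signal of the 12 probes relative to the 75th percentile of each array, with NPRA-/- arrays (red, n = 3) left of NPRA+/+ arrays (blue, n = 5) for each probe, a bar at each mean and the marker shape giving the scan day. The genotypes overlap for every probe except those of Nkx2-5 and Hand1, and heights are not comparable between probes.

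Gata4, which drives heart tube formation and later cardiomyocyte growth, split the NPRA-/- arrays. Its level was 1.85, 2.91 and 2.84 in NPRA-/- replicates 1 to 3, against 2.11, 2.28, 2.08, 2.46 and 2.27 in NPRA+/+ replicates 1 to 5. NPRA-/- replicates 2 and 3 were above, and replicate 1 below, every NPRA+/+ array. The change over all arrays was 0.09 ± 0.25 (limma, adjusted p = 0.566), with a 95% interval of -0.49 to 0.66. Within scan day 1, with 2 arrays of each genotype and without NPRA-/- replicate 1, it was 0.52 ± 0.11 (limma, adjusted p = 0.0329). In that fit 16.9% of all probes passed, 15.6% higher on NPRA-/- arrays, and genotype cannot be told apart from slide. Over its 25 alternatives the adjusted p of Gata4 ran from 0.0111 to 0.980, and with scan day 1 joined to quantile normalization the change was 0.74 and did not pass. Gata4 also passed with array weights, where 27.1% of all probes did (24.9% higher), and without scan days 3 and 4, where 11.7% did (11.2% higher). The sign of the relative change rested on the NPRA-/- arrays. Leaving out replicate 2 gave -0.12, leaving out replicate 3 gave -0.08 and leaving out replicate 1 gave 0.45. The shift of all probes taken off was 0.23 without replicate 2 and 0.22 without replicate 3. The fitted change itself was therefore positive in both of those fits. Against its own bright signal bin, the change of Gata4 over all arrays was 0.25.

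Gata6, the close relative of Gata4 that acts beside it in cardiomyocytes and in smooth muscle, had nearly identical levels on the NPRA-/- arrays. They were 2.79, 2.79 and 2.76, against 2.54, 2.94, 2.85, 2.33 and 2.84 on the NPRA+/+ arrays. The NPRA-/- values lay inside the NPRA+/+ range. The change was -0.13 ± 0.17 (limma, adjusted p = 0.840), with a 95% interval of -0.51 to 0.25, and turned to 0.06 after quantile normalization. The spread between NPRA+/+ arrays (SD 0.26, n = 5) was larger than the difference of the means.

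Nkx2-5, among the first markers of the cardiac lineage and in the adult a regulator of conduction tissue, was the lowest of the members on NPRA-/- arrays relative to NPRA+/+ arrays. It measured 3.24, 3.30 and 3.23 on NPRA-/- arrays, against 3.38, 3.54, 3.54, 3.43 and 3.41 on NPRA+/+ arrays. Every NPRA-/- array lay below every NPRA+/+ array, although the gap between the nearest arrays was small. Lower and without overlap were 1.29% of all probes. NPRA-/- arrays averaged 3.26 ± 0.04 (SD, n = 3) and NPRA+/+ arrays 3.46 ± 0.07 (SD, n = 5). The fitted change was -0.20 (limma, unadjusted p = 0.104, adjusted p = 0.354). The relative change was -0.41 ± 0.11, with an unadjusted 95% interval of -0.67 to -0.16 that takes the overall shift as fixed. Set against the probes of its own signal bin the change was -0.25, the same as after quantile normalization. The interval does not apply to that smaller change. The relative change was negative under all 25 alternatives, from -0.63 to -0.25, and -0.44 ± 0.09 within scan day 1. Its adjusted p (limma) ran from 0.0421 with array weights to 0.719. The promoter printed above is that of this gene.

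The T-box factors did not separate the genotypes. Tbx5, which patterns the atria, the left ventricle and the conduction system, was at 0.76, 0.65 and 0.75 on NPRA-/- arrays, against 0.29, 0.65, 0.43, 0.88 and 0.84 on NPRA+/+ arrays. The NPRA+/+ arrays spanned the NPRA-/- values on both sides. The change was -0.11 ± 0.17 (limma, adjusted p = 0.795; 95% interval -0.49 to 0.28), and 0.09 after quantile normalization.

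Tbx20, needed in adult cardiomyocytes to keep their contractile and ion channel genes active, was read by 3 probes designed to different RefSeq transcripts. The probe for NM_194263 gave -1.11, -1.16 and -0.63 on NPRA-/- arrays, against -1.24, -1.01, -0.80, -0.27 and -0.73 on NPRA+/+ arrays. NPRA-/- replicates 1 and 2 were among the lowest of the 8 and NPRA+/+ replicate 4 was the highest. Its change was -0.36 ± 0.24 (limma, adjusted p = 0.775). The dimmer probe for NM_020496, with intensities of 23 to 59, gave -4.62, -4.64 and -4.00 on NPRA-/- arrays, against -4.33, -5.18, -5.0, -4.42 and -4.58 on NPRA+/+ arrays. That for NM_001205085, with intensities of 75 to 148, gave -3.00, -3.26 and -3.05 on NPRA-/- arrays, against -3.65, -3.46, -3.31, -3.08 and -3.26 on NPRA+/+ arrays. The genotypes overlapped for both, with changes of 0.08 ± 0.25 and 0.04 ± 0.16 (limma, adjusted p = 0.580 and 0.429). Both became negative after quantile normalization, -0.19 and -0.08. The NM_020496 probe reached 0.60 ± 0.25 within scan day 1 without passing (limma, adjusted p = 0.110; 0.0748 to 0.986 over its alternatives). The 3 relative changes thus differed in sign over all arrays, where the same shift was taken off bright and dim probes. Measured against the probes' own signal bins the changes were -0.20, -0.11 and -0.15, all negative. After quantile normalization the NM_194263 probe was negative too, at -0.23. The 95% intervals of the relative changes, -0.90 to 0.18, -0.50 to 0.66 and -0.32 to 0.41, all included 0.

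The HAND factors gave unlike values. Hand1, which marks the embryonic left ventricle, had the highest change of the 12 probes. Its level was -3.62, -3.90 and -4.06 on NPRA-/- arrays, against -4.33, -4.70, -4.97, -4.59 and -5.16 on NPRA+/+ arrays. All 3 NPRA-/- arrays lay above all 5 NPRA+/+ arrays, as 14.1% of all probes did. NPRA-/- arrays averaged -3.86 ± 0.22 (SD, n = 3) and NPRA+/+ arrays -4.75 ± 0.32 (SD, n = 5), with a relative change of 0.68 ± 0.21 (limma, adjusted p = 0.0859) and an unadjusted 95% interval of 0.20 to 1.16, the shift again taken as fixed. The probe was dim, with intensities of 25 to 66. In its bin of probes by signal the median fitted change was 0.40, and against that the change of Hand1 was 0.49. The change kept its sign under all 25 alternatives, from 0.44 to 0.78, with an adjusted p from 0.00305 to 0.535. It passed without NPRA+/+ replicate 1 (limma, adjusted p = 0.0248, where 11.6% of all probes passed and 11% were higher). It also passed within scan day 1 (0.68 ± 0.14, limma, adjusted p = 0.0332), without scan days 3 and 4, and with array weights. In those settings 15.6%, 11.2% and 24.9% of all probes, in that order, passed and were higher. After quantile normalization the change was 0.46 (adjusted p = 0.535).

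Several lists of markers of other cells had higher summed signals on NPRA-/- arrays, as Hand1 did. The summed signal of 7 mesothelial markers, as multiples of the 75th percentile, ran from 1.24 to 1.81 on NPRA-/- arrays and from 0.691 to 1.02 on NPRA+/+ arrays, and of the 7, Msln (mesothelin) alone passed, at 2.27 ± 0.36 (limma, adjusted p = 0.0498). After quantile normalization the change of Msln was 2.26, as large as before, and 0 of the 7 passed. The list's median relative change was 1.85. The sums also carry the overall shift of 0.21. Sums of 9 fibroblast markers were 110 to 145 on NPRA-/- arrays and 97.6 to 104 on NPRA+/+ arrays, and sums of 6 leukocyte markers 4.12 to 4.70 on NPRA-/- arrays and 3.08 to 3.91 on NPRA+/+ arrays. In both of these lists 0 genes passed, and the median relative change was 0.01 for fibroblast and 0.39 for leukocyte markers, beside -0.05 over all genes. Bright genes such as Dcn (0.21 ± 0.16) weigh most in a sum. Sums of 7 venous and lymphatic endothelial markers were 6.90 to 7.32 on NPRA-/- arrays and 5.52 to 6.60 on NPRA+/+ arrays, also with 0 genes passing and a median relative change of -0.01. Sums overlapped between genotypes for endothelial markers (48.7 to 62.5 on NPRA-/- arrays and 45.8 to 66.9 on NPRA+/+ arrays), for smooth muscle and pericyte markers (24.8 to 55.3 on NPRA-/- arrays and 29.7 to 37.8 on NPRA+/+ arrays) and for fast skeletal muscle markers (1.06 to 1.53 on NPRA-/- arrays and 0.688 to 2.71 on NPRA+/+ arrays), each with 0 genes passing. The median relative change was -0.13 for endothelial, -0.05 for smooth muscle and pericyte and 0.55 for fast skeletal muscle markers. The last was 0.2 after quantile normalization. Only genes with a probe well above background on at least 3 arrays entered the sums. These were 7 of 8 listed mesothelial and 6 of 7 listed leukocyte genes, and every gene of the other lists. The part of these cells in the Hand1 result was not tested. In bulk tissue, more cells of a type and more RNA per cell cannot be told apart.

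Hand2, the partner of Hand1 in the embryonic right ventricle, was at 0.72, 0.16 and 0.64 on NPRA-/- arrays, against 0.39, 0.65, 0.42, 0.70 and 0.28 on NPRA+/+ arrays. The NPRA-/- arrays held both the highest and the lowest value. The change was -0.19 ± 0.18 (limma, adjusted p = 0.970; 95% interval -0.59 to 0.21).

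Mef2c, which controls contractile gene programmes together with GATA and HAND factors, had the change nearest to 0. It measured -1.44, -2.01 and -1.92 on NPRA-/- arrays, against -1.86, -1.99, -1.95, -2.01 and -2.13 on NPRA+/+ arrays. NPRA-/- replicate 1 was the highest of the 8 and the other arrays lay close together. The change was -0.01 ± 0.16 (limma, adjusted p = 0.546), with a 95% interval of -0.38 to 0.35.

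**Figure D2:**
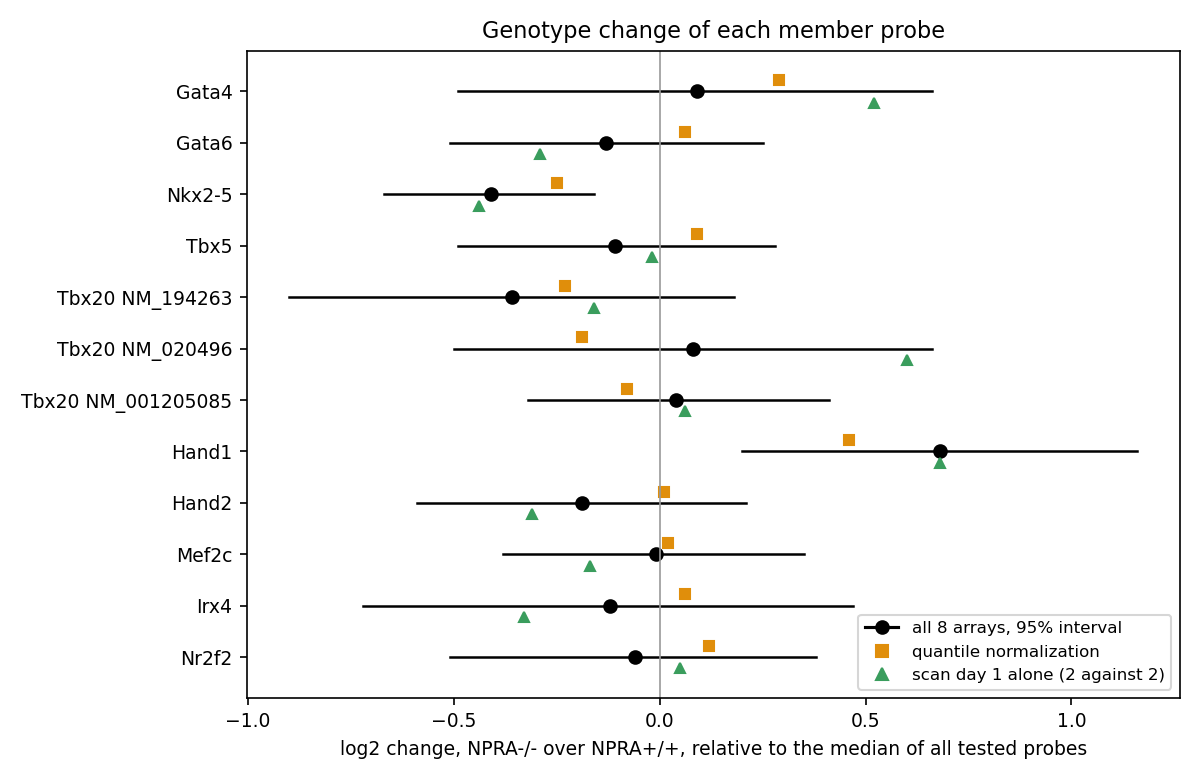
Log2 change of each probe, NPRA-/- over NPRA+/+, relative to the median of all tested probes, with black points and lines for all 8 arrays and their unadjusted 95% interval (the overall shift taken as fixed), orange squares for quantile normalization and green triangles for scan day 1 alone (2 arrays against 2). Nkx2-5 stays below 0 and Hand1 above 0 in all 3, as do the brightest Tbx20 probe (below) and Gata4 (above), while the other 8 probes have values on both sides of 0.

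The chamber factors differed more between arrays of one genotype than between genotypes. Irx4, which keeps ventricular genes on and atrial genes off, was at 1.17, 0.09 and 0.24 on NPRA-/- arrays, against 0.78, 0.38, 0.25, 0.43 and 0.23 on NPRA+/+ arrays. It was highest on replicate 1 of each genotype. Nr2f2, also called COUP-TFII, which gives atrial cardiomyocytes and venous endothelium their identity, was at -0.34, 0.34 and 0.33 on NPRA-/- arrays, against -0.29, 0.16, 0.06, -0.11 and 0.00 on NPRA+/+ arrays. It was lowest on those same replicates, the arrays of scan days 3 and 4. Neither factor separated the genotypes: the change was -0.12 ± 0.26 for Irx4 (limma, adjusted p = 0.897; 95% interval -0.72 to 0.47) and -0.06 ± 0.20 for Nr2f2 (limma, adjusted p = 0.735; 95% interval -0.51 to 0.38). Without NPRA-/- replicate 1 these were -0.44 and 0.18, and within scan day 1 -0.33 ± 0.11 and 0.05 ± 0.09, none past the threshold.

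The summed signals of ventricular and cardiomyocyte markers, in which bright genes weigh most, moved with the same arrays. The summed signal of 4 ventricular markers was 715, 319 and 307 on NPRA-/- arrays, against 582, 253, 240, 206 and 144 on NPRA+/+ arrays. Myl2, the ventricular regulatory light chain, was at 8.16, 6.78 and 6.74 on NPRA-/- arrays, against 7.85, 6.59, 6.59, 6.15 and 5.93 on NPRA+/+ arrays. Replicate 1 of each genotype was thus high in Irx4 and Myl2 and low in Nr2f2. Cardiomyocyte markers summed to 533 to 1260 on NPRA-/- arrays and 302 to 1040 on NPRA+/+ arrays, again with the maximum on replicate 1 of each. Most of these genes, but not all, were themselves highest on replicate 1 of both genotypes. The median relative change was 0.47 for ventricular and 0.27 for cardiomyocyte markers, with 0 genes passing. After quantile normalization these medians were 0.23 and 0.17. Scan day cannot be told apart from the sample here, as days 3 and 4 held 1 array each, and the part of scan day or tissue in these levels was not tested.

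Among the 9 atrial markers, 3 varied by another pattern. Myl4, the atrial essential light chain, was at 5.19, 0.81 and 4.86 on NPRA-/- arrays, against 3.61, 2.58, 0.02, 5.29 and 4.76 on NPRA+/+ arrays. NPRA-/- replicate 2 and NPRA+/+ replicate 3 were far below the others. Sarcolipin (Sln) and the atrial light chain Myl7, singled out after their values were seen, were lowest on the same arrays, Sln at -3.02 and -3.11 and Myl7 at -3.29 and -4.49. The other 6 were not lowest on both of these arrays. Nppa, the atrial natriuretic peptide gene, was at 5.62, 5.33 and 5.64 on NPRA-/- arrays and 5.17 to 5.56 on NPRA+/+ arrays. The 9 atrial markers had no member past the threshold and summed to 53.2 to 105 on NPRA-/- arrays and 58.7 to 105 on NPRA+/+ arrays. On the arrays low in Myl4, Nr2f2 was at 0.34 in NPRA-/- replicate 2 and 0.06 in NPRA+/+ replicate 3, and Tbx5 was at 0.65 and 0.43. Tbx5 was highest on NPRA+/+ replicates 4 and 5, which were also high in Myl4. It was lowest, at 0.29, on NPRA+/+ replicate 1, where Myl4 was at 3.61 and thus not among its lowest. The part of atrial tissue in the levels of the factors was not tested.

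**Figure D3:**
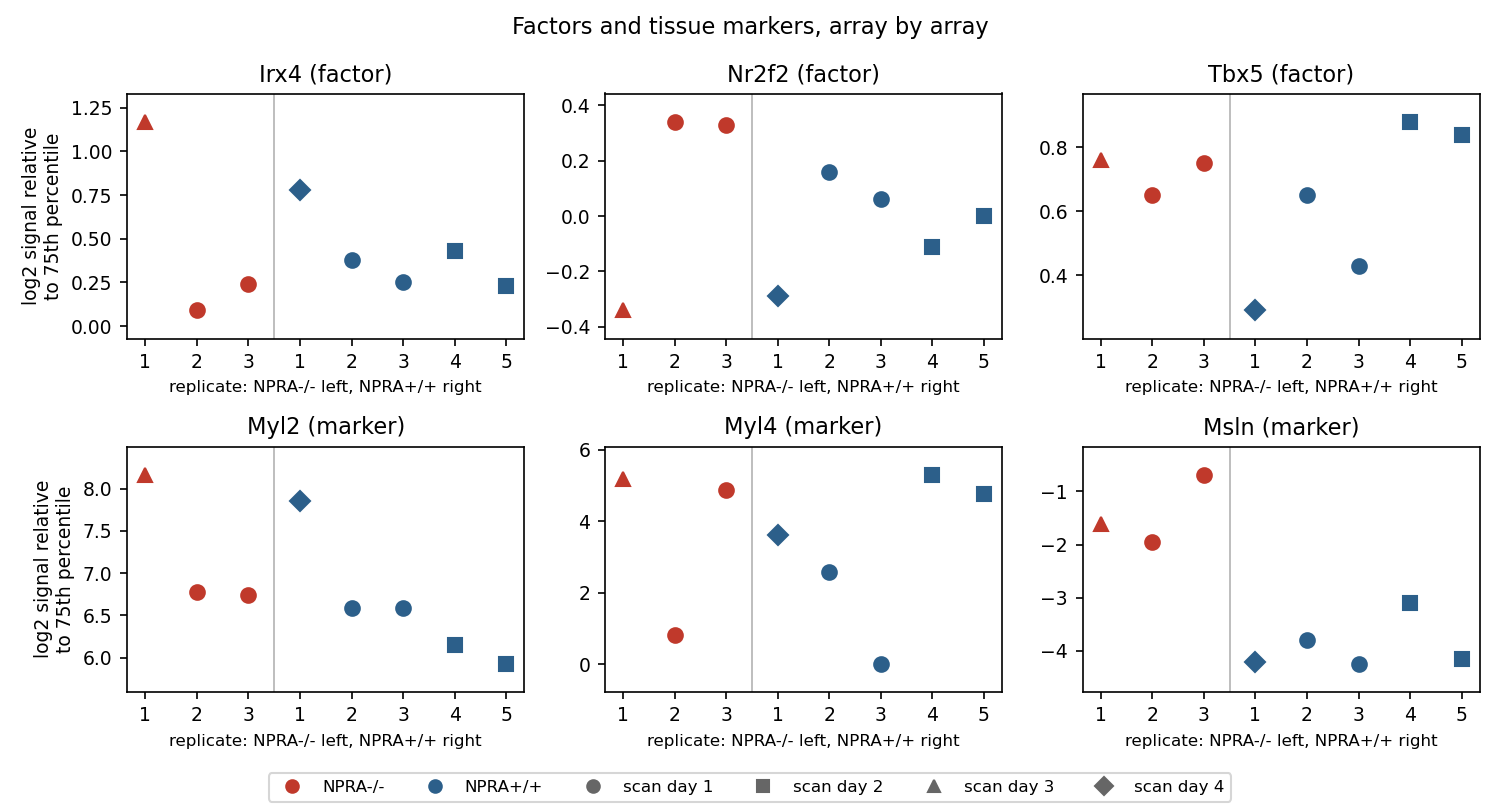
Log2 signal relative to the 75th percentile on each array for the factors Irx4, Nr2f2 and Tbx5 (upper row) and for Myl2 (ventricular), Myl4 (atrial) and Msln (mesothelial) markers (lower row), with NPRA-/- replicates 1 to 3 left of NPRA+/+ replicates 1 to 5 and marker shape for scan day. Replicate 1 of each genotype is high in Irx4 and Myl2 and low in Nr2f2, and of these 6 genes Msln alone separates the genotypes.

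Other cardiac transcription factors and their cofactors, 31 genes with 1 probe each (the brightest), were all measured. None (0 of 31) passed either way, against 0.32% of 19062 genes (0.294% higher and 0.0262% lower). Before adjustment, p was under 0.05 for 1 higher and 3 lower genes of the list, against 17.4% of all genes, 16.2% higher and 1.24% lower. Their median change was -0.20, beside -0.05 over all genes, and -0.04 after quantile normalization. The 4 genes by the smallest p were relatives of the members. Mef2a, a MEF2 factor of adult heart and skeletal muscle, was at 1.55, 2.34 and 2.29 on NPRA-/- arrays, against 2.68, 2.91, 2.80, 2.86 and 3.36 on NPRA+/+ arrays, all NPRA-/- arrays being lower. Its change was -1.07 ± 0.23 (limma, adjusted p = 0.105), while a second, dimmer Mef2a probe was at -0.35 ± 0.25 and overlapped between genotypes.

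Gata5, the third GATA factor of the heart, was at -2.22, -1.96 and -1.82 on NPRA-/- arrays, against -1.77, -1.45, -1.60, -1.53 and -1.27 on NPRA+/+ arrays, without overlap and with a change of -0.68 ± 0.16 (limma, adjusted p = 0.154). Irx3, an Iroquois relative of Irx4 that acts in the conduction system, was at 1.37, 1.41 and 1.42 on NPRA-/- arrays, against 1.84, 1.76, 2.22, 1.82 and 1.66 on NPRA+/+ arrays. Its NPRA-/- arrays agreed closely with each other and lay below all NPRA+/+ arrays, with a change of -0.67 ± 0.15 (limma, adjusted p = 0.152). Mef2b was at -4.0, -3.72 and -3.92 on NPRA-/- arrays, against -4.93, -4.36, -4.48, -5.11 and -4.92 on NPRA+/+ arrays. It was higher and did not overlap, at 0.67 ± 0.20 (limma, adjusted p = 0.0815). Its probe was dim, between the dim Tbx20 probes in mean level, and the median fitted change of their signal bin was 0.40. Of all probes, 14.1% were higher without overlap and 1.29% lower. After quantile normalization these changes were -0.89 for Mef2a, -0.66 for Gata5, -0.48 for Irx3 and 0.45 for Mef2b.

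Among 22 cardiac genes that these factors are known to bind or activate, all were measured and 0 passed. Of all genes 0.32% passed. Before adjustment, p was under 0.05 for 1 of the 22, which was higher, against 17.4% of all genes, 16.2% higher. The median change of the list was 0.12. The gene with an unadjusted p under 0.05 was Adora1, the adenosine A1 receptor, at 0.13 ± 0.14 (limma, adjusted p = 0.230). Nppb, the B-type natriuretic peptide gene and a GATA4 target, was at 4.31, 3.68 and 3.78 on NPRA-/- arrays, against 4.04, 3.23, 2.46, 3.46 and 3.72 on NPRA+/+ arrays, overlapping, with a change of 0.34 ± 0.34 (limma, adjusted p = 0.427). Ankrd1, a stress-responsive sarcomere protein gene, was at 0.25 ± 0.30 and the sodium-calcium exchanger gene Slc8a1 at 0.05 ± 0.14 (limma, adjusted p = 0.442 and 0.356). The summed signal of the list was 833 to 2140 on NPRA-/- arrays and 513 to 1690 on NPRA+/+ arrays, with replicate 1 of each genotype highest.

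Regulators and co-activators of the MEF2 factors, class IIa histone deacetylases and kinases among them, were measured for 11 of 11 genes. None (0) passed with limma, against 0.32% of all genes. None (0) had an unadjusted p under 0.05, against 17.4% of all genes. The median change was -0.16. Hdac9, a class IIa deacetylase that holds MEF2 factors inactive, had a change of -0.62 ± 0.30 and Hdac5, its relative, -0.04 ± 0.13 (limma, adjusted p = 0.499 each). Mapk7, the kinase ERK5, was at -0.03 ± 0.15 and Cabin1, a MEF2 corepressor, at 0.00 ± 0.12 (limma, adjusted p = 0.575 and 0.388). That Cabin1 probe was higher without overlap, as were 14.1% of all probes, and a second, dimmer Cabin1 probe was at 0.59.

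**Figure D4:**
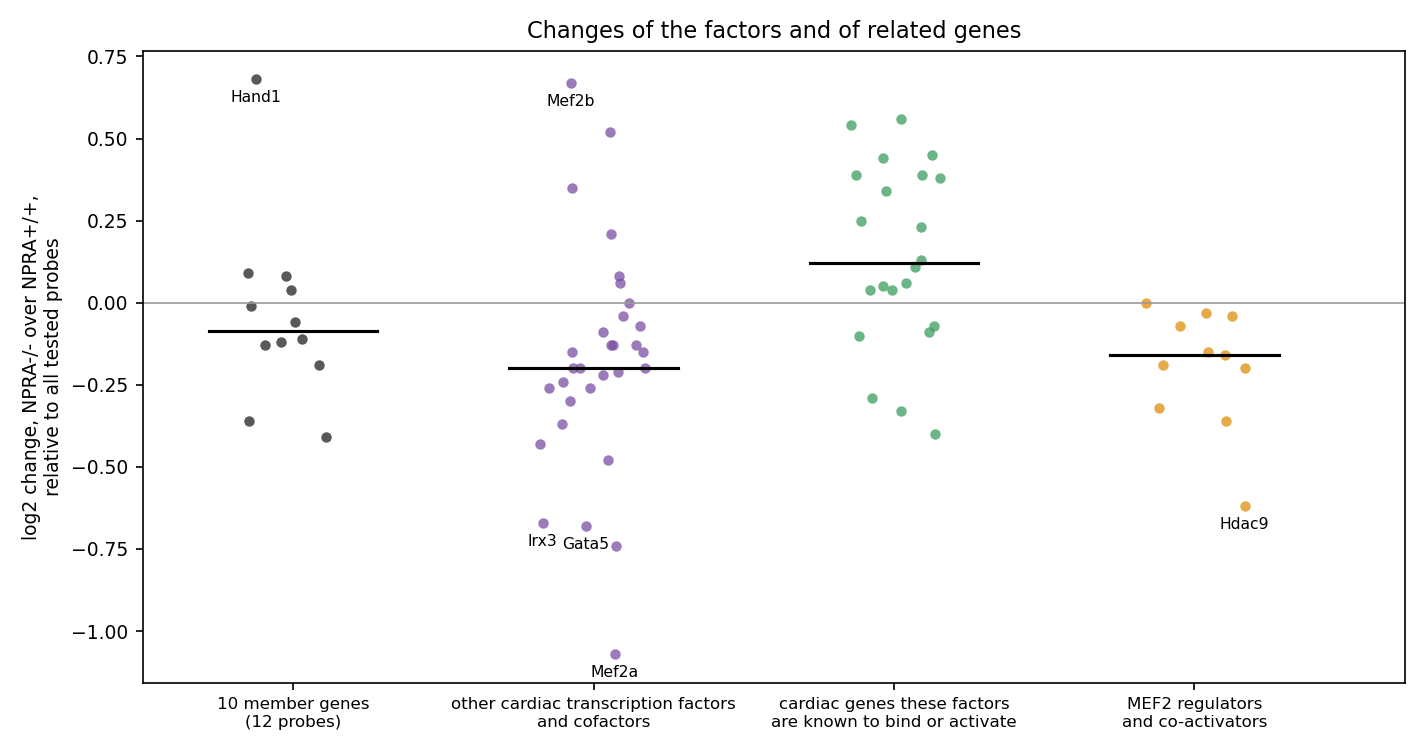
Log2 changes, NPRA-/- over NPRA+/+, relative to all tested probes, for the 12 member probes and for 1 probe per gene of 3 lists, each point a probe or gene and each bar a median (-0.09, -0.20, 0.12 and -0.16). Named are Hand1 and, among the genes described in the text, those with a change over 0.6 in size; no point passed the test.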

How the data were processed

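Transcript levels came from 8 arrays, 1 per sample. The deposited scanner output gives a linear intensity for each spot, from which local background had been subtracted, and flags for outlier spots and spots above background. The submitters' processing notes name Agilent Feature Extraction 11.0.1.1 as the software. A deposited series table gives log2 values, with no normalization stated. Each column had a median of 7.04 and followed its own array's ranks.

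Control spots were left out, flagged outlier spots set to missing and log2 values of a probe's spots averaged. Each array's 75th percentile of processed intensity (775.2 to 1252.7) was subtracted on the log2 scale. No spot was saturated (0). Probes well above background on at least 3 arrays were tested (35329) with limma 3.58.1 in R 4.3.3, genotype as the only term, two-sided, Benjamini-Hochberg adjusted over all, at 0.05. Every adjusted p comes from limma. The fit was checked on simulated data with independent noise and no slide, scan day or overall shift. That check bears on the calculation only, not on the p-values of these arrays. Names came from RefSeq transcripts (GRCm38.p6, 27242 probes named and 12187 not). Probe coordinates, which follow a different build, were left out. Where probes of 1 listed gene differed, the brightest stood for it.

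Members and lists were chosen with earlier results of these data known. The text names all members, the 4 genes of smallest p of each function list, and at most 3 of the brightest genes of a cell type list plus any that passed. Sln, Myl7 and Cacna1c, outside this rule, were chosen after their values were seen. The labels call samples biological repetitions without naming animals. The p-values therefore reflect sample-to-sample spread only, which may be technical. Deviations of equally numbered samples (repetition number) correlated by 0.63, 0.28 and 0.36 across probes. Unequal numbers reached 0.33. The source names give other numbers (1 for 3 NPRA+/+ arrays), under which pairs correlated by 0.63, -0.37 and -0.37 for number 1, 0.12 and 0.30. Both numberings were run as blocks. Other alternatives were normalization, background correction, filters, outlier flags, the deposited table, slide, scan day, variance models, array weights and leaving out each array. Another 2 settings, without scan days 3 and 4 and scan day 1 with quantile normalization, were added after seeing the data.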

Additional observations from a re-analysis of the deposited data

How the results depend on the processing

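Among the 12 member probes none (0 higher, 0 lower) passed with limma, and this held under 21 of 25 alternatives. Exceptions were scan day 1 alone (2 higher, Gata4 and Hand1), without scan days 3 and 4 (2 higher), array weights (2 higher and 1 lower, Nkx2-5) and without NPRA+/+ replicate 1 (1 higher, Hand1), so leaving out 1 array gave 0 to 1 higher and 0 lower. The replicate block, by either numbering, left 0 members and changed no member's call. Of all probes 113 were higher and 10 lower. These were 0 and 0 with quantile normalization, alone or joined with the replicate block by repetition number or with scan day 1, with scaling to the median, normexp, the deposited series table, slide as a random block, scan day as a block, the replicate block by repetition number, or a trended robust variance. They were 1 and 21 with the replicate block by source name number, 183 and 10 with no filter, 3 and 0 when a probe had to be above background on every array, 37 and 5 with outlier spots kept, 5494 and 485 on scan day 1 alone, 8808 and 749 with array weights, 3954 and 180 without scan days 3 and 4, and 0 to 3901 and 0 to 187 with 1 array left out, the maxima without NPRA+/+ replicate 1. Msln, the 1 mesothelial gene past the threshold, did not pass after quantile normalization (0 genes), where its change was 2.26 against 2.27 before. Signs of small relative changes turned. With quantile normalization and the deposited table they were 0.06 for Gata6 and Irx4, 0.09 for Tbx5, -0.19 (NM_020496) and -0.08 (NM_001205085) for Tbx20, 0.01 for Hand2, 0.02 for Mef2c and 0.12 for Nr2f2. Gata4 turned to -0.10 with normexp and with slide, and -0.07 with the replicate block by source name number, where Tbx20 was -0.02 and -0.01 and Mef2c 0.04. Slide gave -0.07 for Tbx20 (NM_020496) and 0.05 for Mef2c, and probes above background on all arrays 0.04 for Mef2c. Tbx5 turned to 0.08 with the replicate block by repetition number, 0.24 when that was joined with quantile normalization (Nr2f2 0.10) and 0.17 on scan day 1 with quantile normalization (Tbx20 NM_001205085 -0.06, Nr2f2 0.22). Nr2f2 was 0.05 on scan day 1, with scan day as a block and with array weights, and 0.10 without scan days 3 and 4 (Tbx20 NM_001205085 -0.07). Leaving out 1 array gave ranges of -0.12 to 0.45 for Gata4, -0.14 to 0.20 and -0.04 to 0.12 for the dim Tbx20 probes, -0.17 to 0.08 for Mef2c, -0.44 to 0.06 for Irx4 and -0.19 to 0.18 for Nr2f2. The cause of these differences was not tested. Nkx2-5, Hand1 and the NM_194263 probe of Tbx20 kept their sign under all 25. The number of arrays limits precision, and the 2 dim Tbx20 probes and Hand1 lay nearest to background.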
